A study of Chimonocalamus delicatus with 27 samples.

Results

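Glutathione S-transferases of the fragrant bamboo Chimonocalamus delicatus were followed through culm growth and across plant parts in RNA sequencing libraries. The genes were taken by their annotation alone, as every row whose description contained "glutathione S-transferase" or "glutathione transferase" in any case. Of 55972 genes measured at the growth stages 203 were such genes, and of 57356 measured in the plant parts 207 were. The tables shared 201 of them, with PH02Gene identifiers and the same description in both, and the remaining 2 and 6 had MSTRG identifiers, which belong to assembled transcripts. Symbols and descriptions were those the depositors assigned from similar genes of other species, so that several genes carry the same symbol and each is given here with its identifier.

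Glutathione S-transferases join the tripeptide glutathione to reactive or foreign molecules, and in plants the conjugates are moved into the vacuole by ABC transporters of the C family. The tau and phi classes are the large plant classes, known for herbicide detoxification and for binding flavonoids and other secondary compounds. The zeta class isomerises maleylacetoacetate in tyrosine breakdown, theta enzymes act as glutathione peroxidases, dehydroascorbate reductases (DHAR) recycle vitamin C, lambda enzymes transfer thiols, and microsomal enzymes are unrelated membrane proteins with a similar activity.

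The study compared culm ages and plant parts with aroma and terpenoid genes in view. The growth stage set held the shoot and stems of 0.5, 1, 2 and 3 years, and the plant part set held leaf, branch, rhizome and a stem of unstated age, called here the part-set stem, with 3 libraries in each of the 9 groups. All libraries came from 1 species and the labels gave no treatment, cultivar contrast or growth condition. Whether a group's 3 libraries stem from different plants was not stated, and p-values therefore describe the spread among the libraries sequenced, which may be technical.

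Expected counts summed to between 8615092 and 12422327 in each growth stage library and to between 6257623 and 9010973 in each plant part library. At that depth, 3 counts in a library made 0.242 to 0.348 CPM at the growth stages and 0.333 to 0.479 CPM in the plant parts. Libraries of the shoot varied most in the growth stage set, with a biological coefficient of variation of 44.2%, against 5.43% in the 0.5-year stem and 24.3% to 30% in the older stems. Rhizome libraries varied most in the plant part set, at 59.9%, against 19.9% to 39.4% in the other parts. Shoot library 3 and rhizome library 2 stood apart within their groups. Where their removal ended a call of a gene described below, or moved its printed log2 change by over 1.5-fold, the value without them is given. The 0.5-year libraries were so alike that their counts were also summed to 1 sample as an alternative chosen after seeing the data. Photosynthetic marker genes summed to 8419 to 10560 FPKM (fragments scaled by transcript length and by library depth) in leaf, 1011 to 1754 in branch, 17.11 to 24.23 in rhizome and 819.3 to 3125 in the part-set stem. Cell division genes summed to 45.55 to 60 FPKM in the stems of all ages, against 173.2 to 629.9 FPKM in shoot. The 6 endodermis genes (Casparian strip membrane proteins) were close to 0 in all parts, rhizome included, where they summed to 0 to 0.339 FPKM. In bulk tissue, fewer cells of a type and less RNA per cell cannot be told apart.

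Most glutathione S-transferase genes were not expressed at a testable level. Of the 203 genes in the growth stage set, 73 reached 1 FPKM in at least 3 libraries and were tested among 29538 genes, and 69 of 207 among 29630 genes from the plant parts, with 61 genes tested in both. Of the 130 growth stage genes left untested, 89 had no count in any library and 6 reached 1 FPKM in some library. The 138 untested genes of the plant part set included 80 without any count and 20 that reached 1 FPKM. The highest of the untested genes were GSTF11 (PH02Gene28680), at 10.3 FPKM in its highest growth stage library, and GSTU6 (PH02Gene37736), at 10.2 FPKM in its highest plant part library. Silence was unevenly spread over the classes, since 47 of 63 theta genes had no count at any growth stage, against 18 of 60 tau genes, 7 of 30 phi genes, 2 of 12 zeta genes and none of the 4 DHAR, 3 microsomal and 2 lambda genes.

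The family's summed expression was highest in the shoot and lowest in older stems. It averaged 3754 ± 947 FPKM in shoot, 1903 ± 31.3 FPKM in 0.5-year stem, 1134 ± 90.5 FPKM in 1-year stem, 1033 ± 27.7 FPKM in 2-year stem and 1144 ± 233 FPKM in 3-year stem (SD, n = 3 each). The sum was 3558 ± 406 FPKM in leaf, 3618 ± 488 FPKM in branch, 2669 ± 882 FPKM in rhizome and 2242 ± 101 FPKM in the part-set stem (SD, n = 3 each). A single gene, GST1 (PH02Gene00763), contributed 48.8% to 56.8% of the family's FPKM in the shoot libraries, 27.5% to 29.0% in the 0.5-year stem and 3.95% to 5.42% in the 3-year stem. By the test for any difference among groups, 54 of 73 genes differed over the growth stages, where 75% of all genes tested did, and 41 of 69 differed over the plant parts, where 56.9% of all genes did. Both shares, 54 of 73 and 41 of 69, lay near those of genes at large. Of the 73 growth stage genes, 26 (35.6%) had their highest mean in the 0.5-year stem, as did 17.6% of all genes tested, and 26 (35.6%) had it in shoot, as did 49.4% of all genes. Of the 69 plant part genes, 30 (43.5%) were highest in leaf, against 26.7% of all genes, and 5 (7.25%) in the part-set stem, against 16.3%. The filter fixed the highest group of some genes, since 12 passed it through shoot alone, 3 through leaf alone and 1 through rhizome alone. Such genes made 16.4% and 5.8% of the tested genes of the family, against 6.34% and 2.09% of all genes tested. These shares are therefore not on an equal footing.

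**Figure D1:**
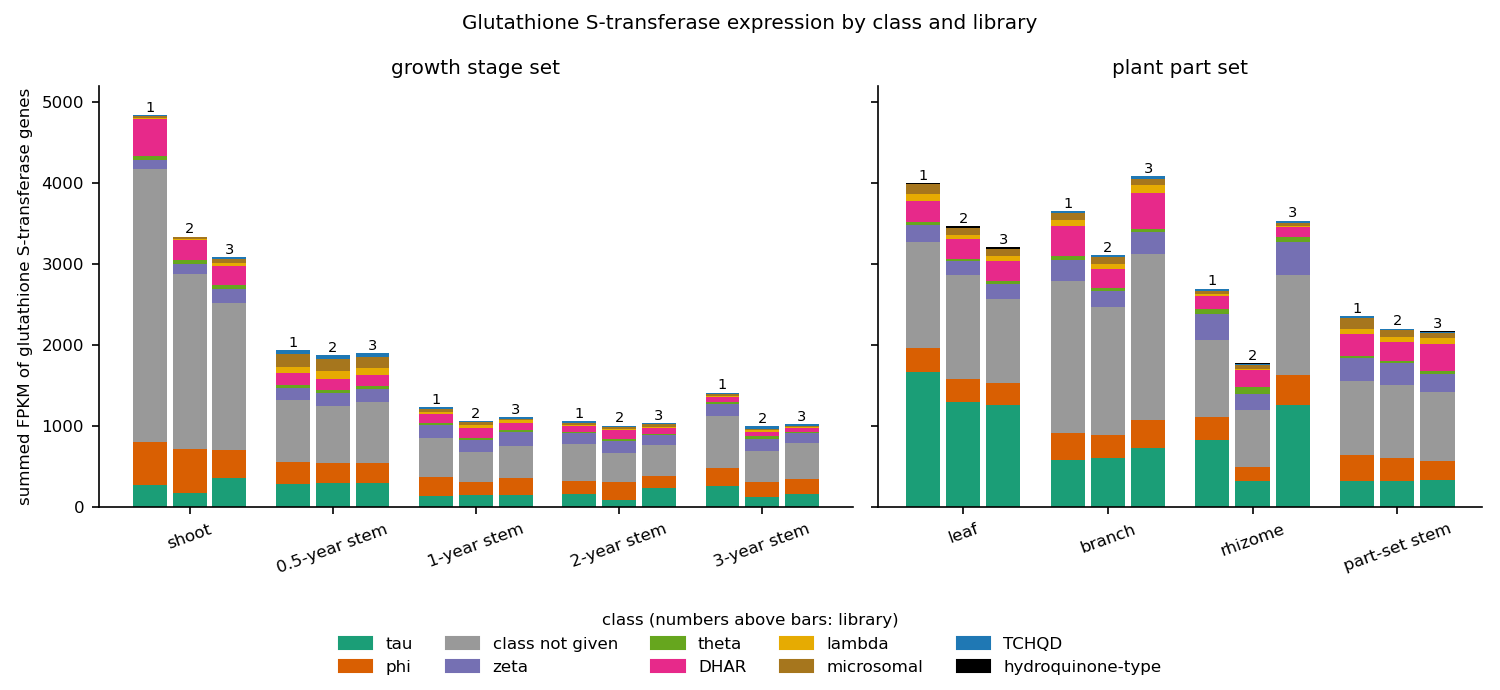
Stacked bars give the summed FPKM of all glutathione S-transferase genes in each library, coloured by class, for the growth stage set (left) and the plant part set (right), with the library number above each bar. The class not given averages 2455 FPKM in shoot, of which GST1 makes 1972 FPKM, and 403 to 488 FPKM in the stems of 1 to 3 years, where GST3 exceeds GST1, and the tau class fills 1257 to 1663 FPKM of the leaf bars, against 318 to 330 FPKM of the part-set stem bars.

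Between shoot and 0.5-year stem, 26 of 73 genes were called higher (35.6%) and 18 lower (24.7%) in the stem. Of all genes tested, 26.5% were higher and 27.3% lower. The median log2 change over the 73 genes was 0.76, also with genes at 0 set to their bound, and that of all genes was -0.04. Log2 changes are edgeR's, on counts scaled by TMM, and so can differ from the ratio of mean FPKM. On the log2(FPKM + 1) scale the median of all genes in this comparison lay at -0.28, and there 20 genes were higher and 21 lower, so that 48.8% of the called genes were higher, against 59.1% with edgeR. Without shoot library 3, 31 genes were higher and 19 lower, including 43 of the 44 called with it. In that fit 50 of the 73 genes were called in either direction, beside 17227 of all 29538 genes tested. With the 0.5-year libraries summed to 1 sample, 14 were higher and 14 lower. All 12 genes of the family that reached 1 FPKM in a single stage did so in shoot, so these genes had to be lower in stems and their number carries no weight. They made 16.4% of the tested genes of the family, where such genes made 6.34% of all genes tested. All of them but yqjG (PH02Gene05872) were among the 18 called lower, so the filter fixed the direction of most of those calls.

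GST1 and GST3, the most abundant genes of the family, were both lower in the 0.5-year stem. Maize enzymes with these numbers are phi-class detoxification enzymes, but the descriptions here gave no class. GST1 (PH02Gene00763) stood at 555, 515 and 550 FPKM in the 0.5-year stem libraries and at 2746, 1667 and 1504 FPKM in the shoot libraries. The groups did not overlap, and the log2 change was -1.52 (SE 0.28, adjusted p = 0.000416). GST1 was lower again in the 1-year stem, at 156, 99.4 and 106 FPKM, with a log2 change of -2.20 against the 0.5-year stem (SE 0.29, adjusted p = 0.000138). It averaged 53.7 ± 16.1 FPKM in the 2-year stem and 50.9 ± 6.84 FPKM in the 3-year stem (SD, n = 3 each), where its log2 change against the 0.5-year stem was -3.25 (SE 0.30, adjusted p = 4.4e-06). The step between the 1-year and 2-year stems was not called with edgeR but was with DESeq2 (log2 change -0.96, adjusted p = 0.0208) and with limma on log2(FPKM + 1) (-1.16, adjusted p = 0.0384).

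GST3 (PH02Gene12093) was lowest in the 0.5-year stem. It had 151, 126 and 135 FPKM there, against 561, 482 and 264 FPKM in shoot (log2 change -1.33, SE 0.27, adjusted p = 0.000867). Unlike GST1 it stood higher in older stems, with means of 190 ± 6.48 FPKM at 1 year, 229 ± 27.4 FPKM at 2 years and 312 ± 71.3 FPKM at 3 years (SD, n = 3 each). Its 3-year libraries, at 388, 246 and 302 FPKM, all lay above the 0.5-year libraries (log2 change 1.35, SE 0.27, adjusted p = 0.00107). In the 3-year stem GST3 thus stood above GST1, and in shoot below it. GST4 (PH02Gene28167) averaged 77.8 ± 36.4 FPKM in the 3-year stem and 35.9 ± 2.36 FPKM in the 0.5-year stem (SD, n = 3 each). Its log2 change of 1.28 (SE 0.47, adjusted p = 0.0399) was lost without any of the 0.5-year libraries or without 3-year library 1 or 3 (adjusted p = 0.0523 to 0.186). It was also lost on log2(FPKM + 1) and log2(FPKM + 0.1) (adjusted p = 0.089 and 0.114) and with the 0.5-year libraries summed (0.257).

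The phi class held the deepest falls. Of its 18 tested genes, 9 were lower and 5 higher in the 0.5-year stem, with a median log2 change of -1.18. Set apart by their descriptions after their values were seen, the 8 tested genes described as F10 or F11 were all lower, and of the other 10 phi genes, mostly named GSTF1, 1 was lower and 5 were higher. Of those 8 genes, 7 passed the filter through shoot alone, so their direction was fixed by it. All 13 genes so described summed to 8.55, 6.51 and 8.21 FPKM in the 0.5-year stem libraries, against 405, 414 and 103 FPKM in the shoot libraries, and they stayed between 4.03 and 11.8 FPKM in every library of older stems. In the plant part set the same sum was 31.2 to 37.7 FPKM in leaf, 24.7 to 34.8 FPKM in branch, 23.3 to 38.8 FPKM in rhizome and 20.2 to 22.0 FPKM in the part-set stem.

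GSTF10 (PH02Gene03580) was the most abundant of these shoot genes. Its values were 0, 0.068 and 0.181 FPKM in the 0.5-year stem and 153, 132 and 25 FPKM in shoot, where library 3 was the lowest (log2 change -9.84, SE 0.88, adjusted p = 9.7e-07). GSTF4 (PH02Gene50171) had no count in the 0.5-year stem and 20, 17.9 and 4.94 FPKM in shoot, which made it at least 202-fold lower, taking 3 counts over the group as the bound (adjusted p = 0.00014). GSTF10 (PH02Gene49521) likewise had no count in the 0.5-year stem, against 30.4, 26.1 and 5.13 FPKM in shoot, and was at least 132-fold lower (adjusted p = 0.00182). It was not called with DESeq2 (adjusted p = 0.0864). Shoot library 3 held the lowest value of each of these 3 genes, and each call remained without that library. All 3 had passed the filter through shoot alone, which fixed the direction of their calls. Dividing-tissue genes were also high in shoot, as given above, and their part in these results was not tested. The exception among the genes described as F10 or F11 was GSTF11 (PH02Gene28682), which kept 8.02, 5.99 and 7.10 FPKM in the 0.5-year stem, against 34.8, 36.4 and 24.2 FPKM in shoot (log2 change -1.83, SE 0.28, adjusted p = 0.000103).

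In the tau class, 8 of 25 tested genes were higher (32%) and 5 lower (20%) in the 0.5-year stem than in shoot. Of all genes tested, 26.5% and 27.3% were higher and lower. The largest fall of an abundant tau gene was that of GSTU8 (PH02Gene22748), which had 0.690, 0.281 and 0.223 FPKM in the 0.5-year stem and 85.5, 47.7 and 68.4 FPKM in shoot (log2 change -7.02, SE 0.42, adjusted p = 1.34e-07). It reached 1 FPKM in shoot alone, as did HSP26-A (PH02Gene21336). HSP26-A had no count in any stem library of that set and was at least 52.9-fold lower in the 0.5-year stem. GSTU6 (PH02Gene46294) and BZ2 (PH02Gene46297), also called lower, reached 1 FPKM in shoot alone too, so the filter fixed the direction of all these falls. GSTU6 (PH02Gene22556) also fell, to 10.5, 11.7 and 11 FPKM in the 0.5-year stem, against 31.9, 42.8 and 33.4 FPKM in shoot (log2 change -1.35, SE 0.35, adjusted p = 0.00473), a call lost with the 0.5-year libraries summed (adjusted p = 0.11). GSTU1 (PH02Gene15208), the most abundant tau gene, moved the other way, with 142, 143 and 143 FPKM in the 0.5-year stem, against 40.1, 12 and 85.1 FPKM in shoot (log2 change 2.04, SE 0.53, adjusted p = 0.00489; 2.75 without shoot library 3). Its counts were not whole numbers in any growth stage library, so part of its reads may have been shared with related genes.

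Several small classes were higher in the 0.5-year stem than in shoot. All 3 tested microsomal genes (2 of 3 on the log2(FPKM + 0.1) scale) and both lambda genes rose, as did TCHQD, named for a bacterial dehalogenase. Of 7 zeta genes, 4 rose with edgeR but only 1 on either log2(FPKM) scale. Mgst3 (PH02Gene13913), the main microsomal gene, had 141, 129 and 121 FPKM in the 0.5-year stem and 23.1, 22.8 and 40.6 FPKM in shoot (log2 change 2.55, SE 0.33, adjusted p = 2.14e-05). The calls of the other microsomal genes, Mgst3 (PH02Gene09933) and MGST3 (PH02Gene09934), were lost with the 0.5-year libraries summed (adjusted p = 0.0527 and 0.0882). The lambda genes are described as homologs of maize IN2-1, a protein induced by herbicide safeners, and bear the symbol GSTZ5. GSTZ5 (PH02Gene00115) had 51.0, 68.3 and 57.8 FPKM in the 0.5-year stem, against 6.59, 4.49 and 27.6 FPKM in shoot (log2 change 2.59, SE 0.50, adjusted p = 0.0006), and GSTZ5 (PH02Gene35394) had 26.0, 30.0 and 25.7 FPKM against 2.48, 1.98 and 10.2 FPKM in shoot (log2 change 2.86, SE 0.45, adjusted p = 0.000122). For both, shoot library 3 lay highest among the shoot libraries but below all of the 0.5-year stem, and without it the log2 changes were 3.70 for PH02Gene00115 and 3.88 for PH02Gene35394. TCHQD (PH02Gene05218) had 44.3, 47.8 and 47.0 FPKM in the 0.5-year stem and 6.18, 5.38 and 20.1 FPKM in shoot (log2 change 2.53, SE 0.37, adjusted p = 6.63e-05; 3.31 without shoot library 3).

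Zeta and DHAR genes had smaller rises in the 0.5-year stem than these classes, and 1 DHAR gene was called lower. Some tau and phi genes rose more, such as GSTF1 (PH02Gene38549, log2 change 3.38), which is described below. GSTZ1 (PH02Gene40198), the most abundant zeta gene, had 68.1, 69.9 and 70.1 FPKM in the 0.5-year stem and 45.4, 41.9 and 68.8 FPKM in shoot, so the groups overlapped (log2 change 0.79, SE 0.17, adjusted p = 0.00161). On the log2(FPKM + 1) scale it was not called (0.44, adjusted p = 0.0705). Among DHAR genes, DHAR1 (PH02Gene34422), described as DHAR2, fell to 84.0, 75.4 and 77.1 FPKM in the 0.5-year stem, against 344, 198 and 136 FPKM in shoot (log2 change -1.18, SE 0.30, adjusted p = 0.00407), a call that was lost with the 0.5-year libraries summed (adjusted p = 0.0878). The genes with the symbol DHAR2, both described as chloroplast enzymes, moved the other way. DHAR2 (PH02Gene10043) averaged 8.75 ± 0.505 FPKM in the 0.5-year stem and 4.78 ± 1.83 FPKM in shoot (SD, n = 3 each; log2 change 1.24, adjusted p = 0.0032).

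Expression of small heat shock genes moved with the 0.5-year stem. The 13 marker genes described as class I heat shock proteins summed to 944.5 to 1108 FPKM in the 0.5-year stem libraries, against 89.78 to 283 FPKM in shoot, 105.9 to 430.9 FPKM at 1 year, 12.47 to 63.85 FPKM at 2 years and 10.68 to 30.82 FPKM at 3 years. Laccase genes, which act in lignin formation, summed to 330.8 to 779.3 FPKM in shoot, 389 to 421.1 FPKM in the 0.5-year stem and 13.27 to 137.7 FPKM in the older stems. The part of either in the changes of the family around the 0.5-year stem was not tested.

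**Figure D2:**
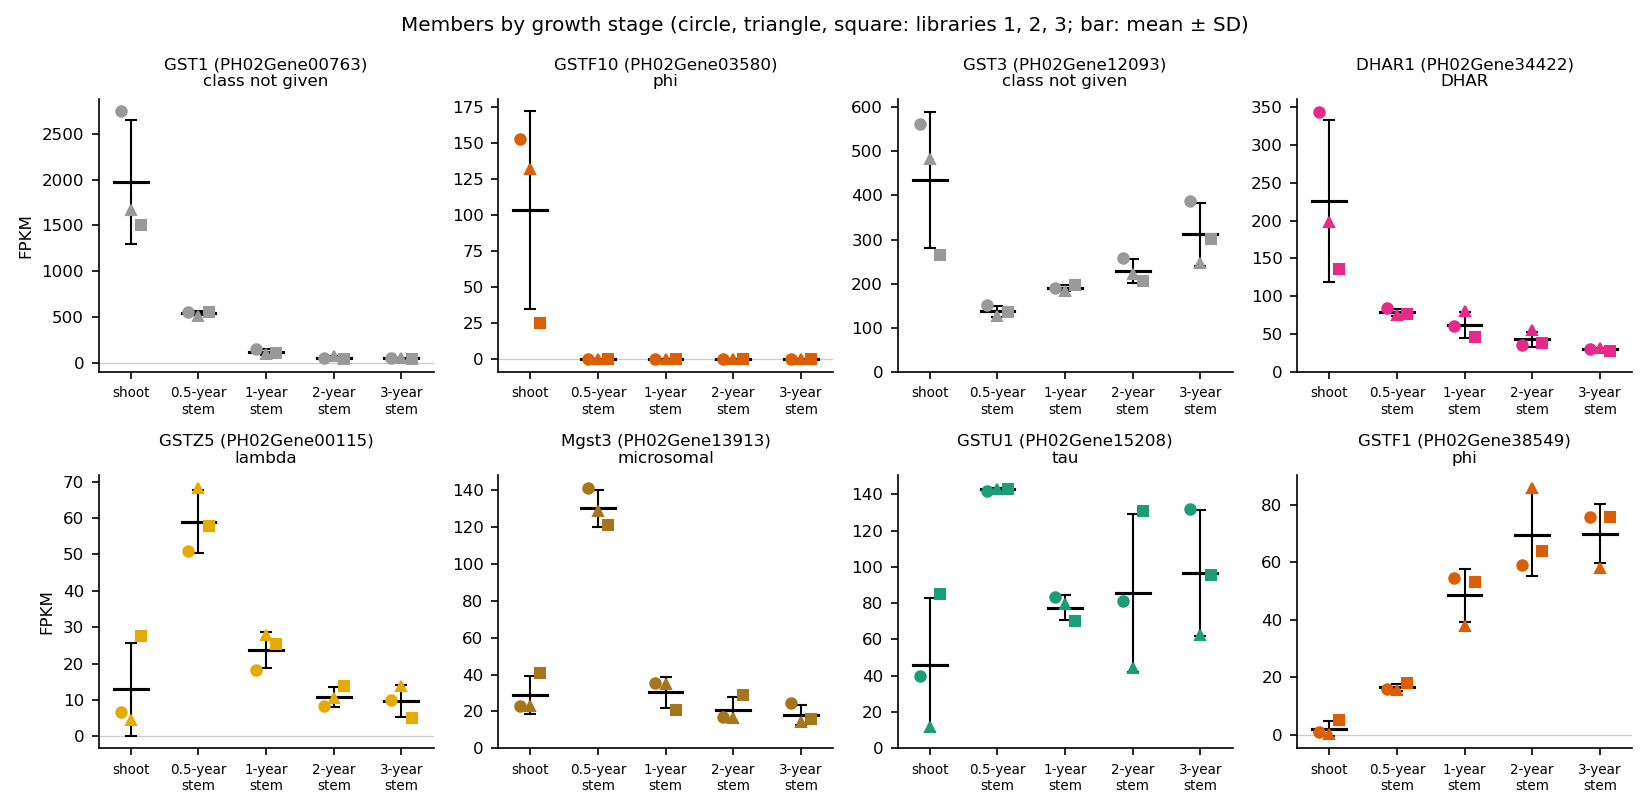
Each panel plots the FPKM of 1 gene in the 15 growth stage libraries from shoot to 3-year stem (circle, triangle and square for libraries 1, 2 and 3; bar, mean ± SD, n = 3). GST1 and DHAR1 (PH02Gene34422) have a lower mean at each later stage, GSTF10 is near 0 in every stem, GST3 is lowest at 0.5 years, GSTZ5, Mgst3 and GSTU1 are highest at 0.5 years, and GSTF1 (PH02Gene38549) is lowest in shoot, with mean levels of 2.05 FPKM there and 70.0 FPKM at 3 years.

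Between 0.5 and 1 year, 15 of the 73 genes were lower (20.5%) and 7 higher (9.59%) in the 1-year stem, while 16% and 14.4% of all genes were lower and higher. Their median log2 change was -0.51, or -0.54 with genes at 0 set to their bound, and that of all genes was -0.01. The genes that were lower included all 3 microsomal genes, both lambda genes (1 of 2 on either log2(FPKM) scale), TCHQD and 5 of 25 tau genes. Mgst3 (PH02Gene13913) had 35.3, 35.1 and 20.8 FPKM in the 1-year stem and 141, 129 and 121 FPKM in the 0.5-year stem (log2 change -2.14, SE 0.32, adjusted p = 0.000365). MGST3 (PH02Gene09934) averaged 0.823 ± 0.623 FPKM in the 1-year stem and 6.28 ± 0.905 FPKM in the 0.5-year stem, and Mgst3 (PH02Gene09933) averaged 1.56 ± 1.16 FPKM and 10.1 ± 1.81 FPKM in the same stems (SD, n = 3 each; adjusted p = 0.00528 and 0.00274). TCHQD (PH02Gene05218) had 17.3, 12 and 19.0 FPKM in the 1-year stem, against 44.3, 47.8 and 47.0 FPKM in the 0.5-year stem (log2 change -1.57, SE 0.36, adjusted p = 0.00491). GSTZ5 (PH02Gene00115) averaged 23.8 ± 4.95 FPKM in the 1-year stem and 59.1 ± 8.72 FPKM in the 0.5-year stem (SD, n = 3 each; log2 change -1.37, adjusted p = 0.0426), but its call was lost without any single library of the pair (adjusted p = 0.0769 to 0.118). GSTZ5 (PH02Gene35394) had a log2 change of -1.40 (SE 0.42, adjusted p = 0.0226), and its call was lost without any of those libraries other than 1-year library 1 (adjusted p = 0.0511 to 0.0722). For PH02Gene00115 and PH02Gene35394 the adjusted p was 0.244 and 0.187 with the 0.5-year libraries summed. With the 0.5-year libraries summed to 1 sample, TCHQD, MGST3 PH02Gene09934 and Mgst3 PH02Gene09933 were no longer called (adjusted p = 0.0834, 0.0736 and 0.0513), and 6 genes were lower and 1 higher, and with these stems fitted alone 26 were lower and 10 higher.

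The 7 genes that rose at 1 year included 4 phi and 2 tau genes. GSTF1 (PH02Gene33263), a phi gene, instead fell to 0.826, 1.06 and 3.30 FPKM in the 1-year stem, against 14.6, 16.8 and 12.9 FPKM in the 0.5-year stem (log2 change -3.16, SE 0.58, adjusted p = 0.00131). GSTF1 (PH02Gene33266) had 14.9, 9.17 and 28.4 FPKM in the 1-year stem and 3.77, 4.14 and 4.03 FPKM in the 0.5-year stem (log2 change 2.07, SE 0.49, adjusted p = 0.00616). HSP26-A (PH02Gene19529), named for a soybean heat shock protein of the tau class, had 11, 13.4 and 17.0 FPKM in the 1-year stem and 2.19, 2.38 and 2.44 FPKM in the 0.5-year stem (log2 change 2.50, SE 0.50, adjusted p = 0.00218). With the 0.5-year libraries summed, the rises of GSTF1 PH02Gene33266 and of HSP26-A were no longer called (adjusted p = 0.139 and 0.101). GSTF1 (PH02Gene38553) averaged 9.69 ± 2.37 FPKM in the 1-year stem and 3.19 ± 0.309 FPKM in the 0.5-year stem (SD, n = 3 each; adjusted p = 0.0193), a call that was lost without 1-year library 3 or any 0.5-year library (adjusted p = 0.0519 to 0.0657). The call of PH02Gene38553 was also lost with the 0.5-year libraries summed (log2 change 1.54).

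From 1 to 2 years and from 2 to 3 years edgeR called none of the 73 genes. Of all genes, 1.03% were higher and 0.474% lower in the 2-year stem than in the 1-year stem, and 0% and 0.00677% were higher and lower in the 3-year stem than in the 2-year stem. At an unadjusted p under 0.05, 20 genes of the family differed between the 2-year and 1-year stems and 3 between the 3-year and 2-year stems, with lowest adjusted p of 0.0597 and 0.426. DESeq2 called 4 and 0 genes, and limma on log2(FPKM + 1) called 2 and 0. Without 2-year library 2, edgeR called 5 genes between the 2-year and 1-year stems, 4 higher and 1 lower. One of them was GSTU6 (PH02Gene22556), with a log2 change of -1.98 (adjusted p = 0.0267).

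Over the whole span of stem ages, 21 genes were lower (28.8%) and 10 higher (13.7%) in the 3-year stem than in the 0.5-year stem, while 24.3% and 21.5% of all genes were lower and higher. The median log2 change was -0.39, or -0.58 with genes at 0 set to their bound, against -0.05 over all genes. All 4 DHAR genes, all 3 microsomal genes and both lambda genes were lower, and tau (3 higher, 5 lower of 25) and phi genes (3 higher, 4 lower of 18) went both ways. With the 0.5-year libraries summed to 1 sample, 13 genes were lower and 4 higher. DHAR1 (PH02Gene34422) had 30.0, 31.5 and 28.2 FPKM in the 3-year stem and 84.0, 75.4 and 77.1 FPKM in the 0.5-year stem (log2 change -1.24, SE 0.30, adjusted p = 0.00399), and this was among the calls lost with the summed libraries (adjusted p = 0.0538).

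Among the falls were genes of the microsomal, tau and phi classes that had already been lower at 1 year. MGST3 (PH02Gene09934) had 0.116, 0 and 0.699 FPKM in the 3-year stem, against 5.91, 7.31 and 5.62 FPKM in the 0.5-year stem (log2 change -4.35, SE 0.77, adjusted p = 0.000472). GSTU6 (PH02Gene22556) had 0.462, 0.508 and 0.772 FPKM in the 3-year stem and 10.5, 11.7 and 11 FPKM in the 0.5-year stem (log2 change -4.10, SE 0.45, adjusted p = 1.48e-05), and its mean was 36.1, 11.1, 3.09, 1.22 and 0.581 FPKM over the stages from shoot to 3-year stem. GSTF1 (PH02Gene33263) averaged 0.644 ± 0.335 FPKM in the 3-year stem and 14.7 ± 1.96 FPKM in the 0.5-year stem (SD, n = 3 each; log2 change -4.34, adjusted p = 0.000119).

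The rises with age were led by PRP1, HSP26-A and several GSTF1 genes. PRP1 (PH02Gene15897), named for a pathogenesis-related protein of potato, had 5.62, 7.71 and 8.59 FPKM in the 3-year stem and 0.740, 0.226 and 0.498 FPKM in the 0.5-year stem (log2 change 4.06, SE 0.68, adjusted p = 0.000307). HSP26-A (PH02Gene19529) had 19.5, 15.3 and 10.9 FPKM in the 3-year stem and 2.19, 2.38 and 2.44 FPKM in the 0.5-year stem (log2 change 2.85, SE 0.50, adjusted p = 0.000427). GSTF1 (PH02Gene38549) had 75.9, 58.1 and 75.9 FPKM in the 3-year stem and 16.0, 15.5 and 17.9 FPKM in the 0.5-year stem (log2 change 2.25, SE 0.45, adjusted p = 0.00119), and the 0.5-year stem was already above the shoot, which had 0.951, 0.251 and 4.96 FPKM (log2 change 3.38, SE 0.52, adjusted p = 0.000111; 4.96 without shoot library 3). GSTF1 (PH02Gene50736) averaged 5.96 ± 2.63 FPKM in the 3-year stem and 1.07 ± 0.444 FPKM in the 0.5-year stem (SD, n = 3 each; log2 change 2.65, adjusted p = 0.0026). With the 0.5-year libraries summed, the rises of GSTF1 PH02Gene38549 and PH02Gene50736 were no longer called (adjusted p = 0.0624 and 0.0637). GSTZ1 (PH02Gene40198) lay between 41.9 and 79.1 FPKM in all 15 growth stage libraries, and GSTT1 (PH02Gene41351), the most abundant theta gene, lay between 10.3 and 36.6 FPKM.

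**Figure D3:**
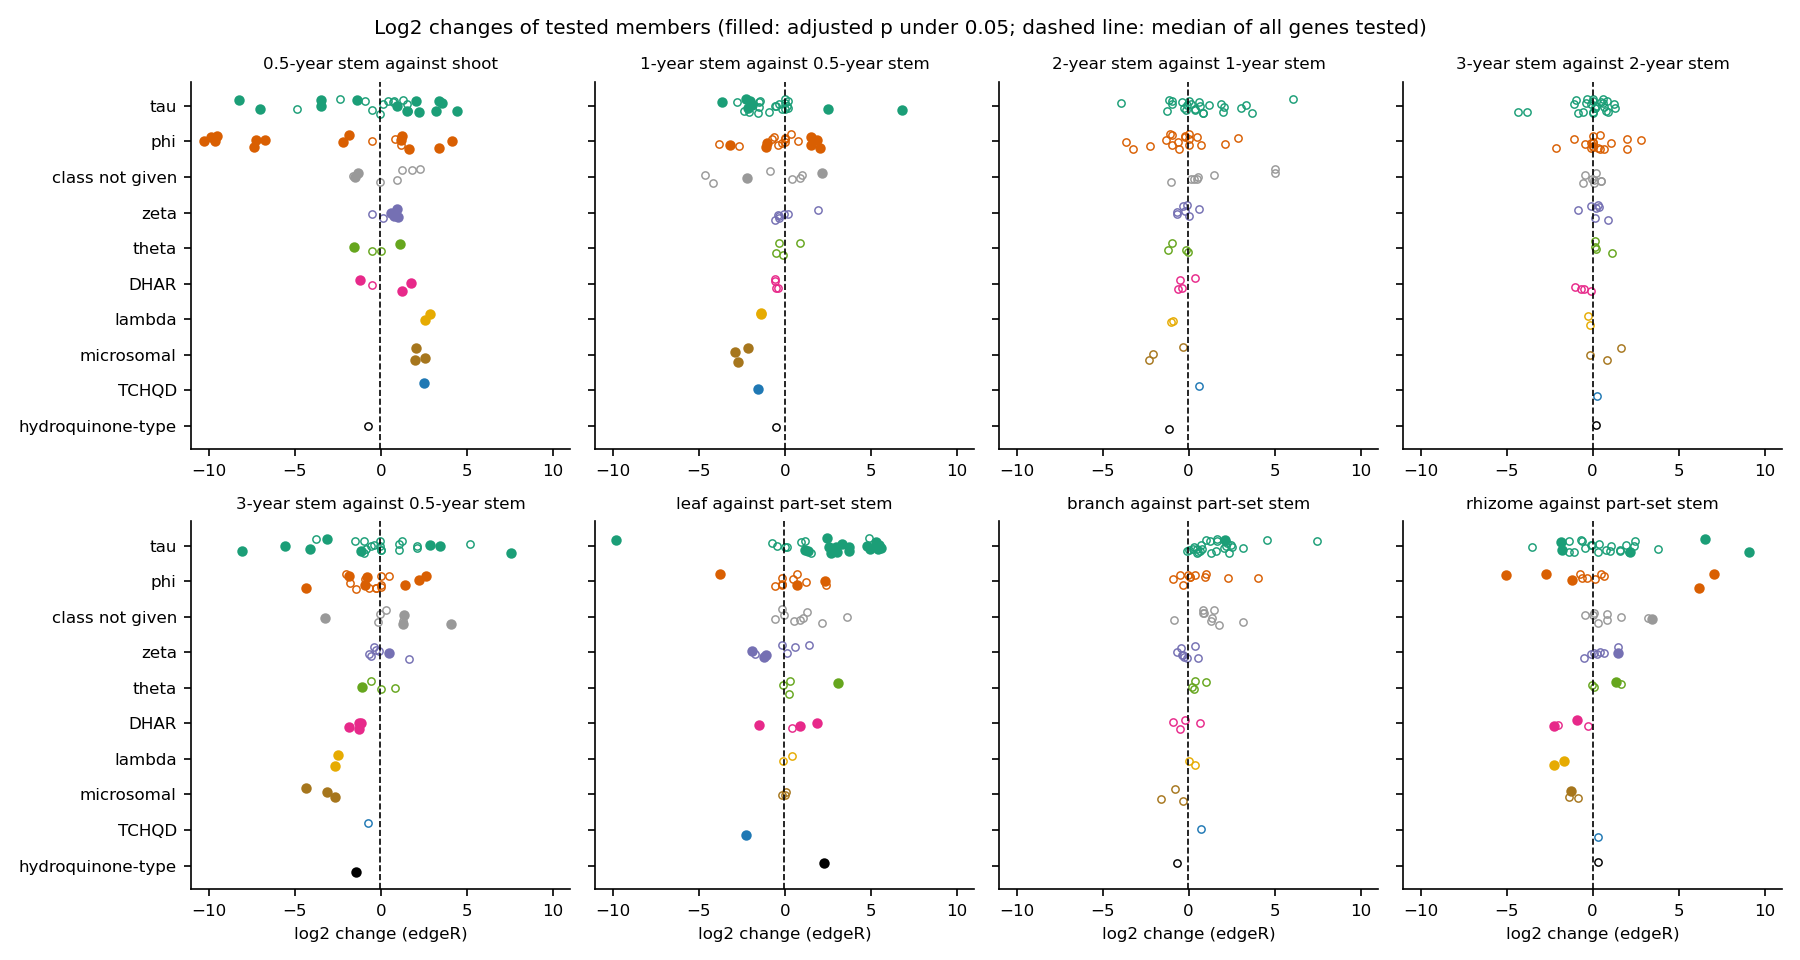
Each panel shows edgeR's log2 change of every tested glutathione S-transferase gene in 1 of the 8 comparisons, by class; filled points have an adjusted p under 0.05 and the dashed line is the median of all genes tested. Phi genes reach the lowest values in the 0.5-year stem against shoot, the panels for 2 against 1 year and 3 against 2 years hold no filled point, and in leaf against part-set stem 17 of 26 tau genes are filled to the right.

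In leaf, between 13 and 17 of the 26 tested tau genes were called higher than in the part-set stem, depending on the scale. Of the family's 69 tested genes, 23 were higher (33.3%) and 7 lower (10.1%) in leaf, while 17.5% and 19.1% of all genes were higher and lower. The median log2 change was 0.73, or 0.82 with genes at 0 set to their bound, against -0.04 over all genes. Tau genes made up 17 of the 23, against 16 called higher on the log2(FPKM + 1) scale and 13 on the log2(FPKM + 0.1) scale. The median over the 26 tau genes was 2.82 on the log2 scale with edgeR (2.71 with genes at 0 set to their bound), 1.48 on log2(FPKM + 1) and 2.65 on log2(FPKM + 0.1). The tau genes GSTU6 PH02Gene22554 and PH02Gene34964 and 1 theta gene had passed the filter through leaf alone, which fixed their direction. Summed over the class, tau genes stood at 1405 ± 224 FPKM in leaf, 635 ± 77.8 FPKM in branch, 797 ± 469 FPKM in rhizome and 323 ± 6.42 FPKM in the part-set stem (SD, n = 3 each).

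GSTU1 (PH02Gene15208) held much of that leaf expression. It had 764, 652 and 608 FPKM in leaf and 104, 135 and 90.0 FPKM in the part-set stem (log2 change 2.71, SE 0.23, adjusted p = 1.51e-05). In the rhizome it was lower than in the stem, at 33.8, 24.0 and 36.6 FPKM (log2 change -1.86, SE 0.23, adjusted p = 0.000303), so leaf and rhizome lay on opposite sides of the stem. In branch it averaged 167 ± 33.5 FPKM (SD, n = 3), and edgeR did not call it against the stem.

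The steepest leaf rises were those of tau genes with nearby identifiers. Chosen after their values were seen, the 14 genes between PH02Gene34961 and PH02Gene34976 included 7 tested ones, all called higher in leaf, of which GSTU6 (PH02Gene34964) had passed the filter through leaf alone. The other 19 tested tau genes included 10 that were higher and 1 that was lower. Their positions in the genome were not analysed here. GSTU6 (PH02Gene34973) had 41.2, 25.8 and 26.8 FPKM in leaf, and 0, 1.24 and 0.958 FPKM in the part-set stem (log2 change 5.49, SE 0.69, adjusted p = 0.000157). GSTU6 (PH02Gene34961) had 34.2, 23.4 and 25.8 FPKM in leaf and 0.482, 0.587 and 0.952 FPKM in the stem (log2 change 5.44, SE 0.73, adjusted p = 0.000234). GSTU6 (PH02Gene34965) had 10.4, 7.65 and 6.54 FPKM in leaf and 0.129, 0.427 and 0.256 FPKM in the stem (log2 change 4.95, SE 0.77, adjusted p = 0.000608). At the growth stages the same 3 genes stayed at or under 2.58 FPKM in every library. The lone tau gene that was lower in leaf was GSTU6 (PH02Gene22555), with no count in any leaf library and 8.84, 12.3 and 15.5 FPKM in the part-set stem, at least 108-fold lower (adjusted p = 0.00157).

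Of the 69 tested genes 26 were tau genes, and among the rest 6 were higher and 6 lower in leaf. Of all genes tested, 17.5% and 19.1% were higher and lower. yqjG (PH02Gene05872), named for a glutathionyl-hydroquinone reductase of Escherichia coli, had 16.7, 16.3 and 18.1 FPKM in leaf and 3.93, 4.05 and 3.31 FPKM in the part-set stem (log2 change 2.26, SE 0.23, adjusted p = 4.72e-05). TCHQD (PH02Gene05218) was lower, at 2.40, 2.85 and 3.16 FPKM in leaf, against 13.5, 11.1 and 17.2 FPKM in the stem (log2 change -2.23, SE 0.24, adjusted p = 6.36e-05). GSTF1 (PH02Gene33266) had 0, 0.650 and 0.452 FPKM in leaf and 4.92, 5.16 and 6.42 FPKM in the stem (log2 change -3.74, SE 0.60, adjusted p = 0.000709). The DHAR genes again parted. DHAR2 (PH02Gene10043), described as a chloroplast enzyme, had 51.3, 55.6 and 57.9 FPKM in leaf and 18.5, 17.5 and 12.2 FPKM in the stem (log2 change 1.86, SE 0.23, adjusted p = 0.000156), and DHAR1 (PH02Gene34422) had 44.1, 54.3 and 46.9 FPKM in leaf and 153, 130 and 156 FPKM in the stem (log2 change -1.51, SE 0.43, adjusted p = 0.0179). The DHAR1 call was lost without leaf library 1 or 3 (adjusted p = 0.0642 and 0.057).

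Of the 8 zeta genes tested, 3 were lower (37.5%) and none higher in leaf, beside 19.1% and 17.5% of all genes. GSTZ1 (PH02Gene09381) averaged 41.0 ± 8.87 FPKM in leaf and 92.1 ± 13.1 FPKM in the part-set stem (SD, n = 3 each; log2 change -1.09, adjusted p = 0.0136). The most abundant zeta gene, GSTZ1 (PH02Gene40198), was level across parts, at 93.9 ± 12 FPKM in leaf, 80.6 ± 13.1 FPKM in branch, 89.5 ± 12.5 FPKM in rhizome and 91.4 ± 8.93 FPKM in the stem (SD, n = 3 each), and it was not called by edgeR in any part. Class I heat shock genes summed to 39.98 to 49.96 FPKM in leaf, 345.3 to 770.7 FPKM in branch, 9.974 to 285.1 FPKM in rhizome and 923.7 to 3970 FPKM in the part-set stem, and their part in the comparisons with this stem was not tested.

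GST1 (PH02Gene00763), the most abundant gene of the family in the plant parts too, had 948, 1073 and 844 FPKM in leaf and 736, 718 and 635 FPKM in the part-set stem. The groups did not overlap. The change was not called by edgeR (log2 change 0.54, SE 0.21, adjusted p = 0.0619) but was with RLE size factors (0.59, adjusted p = 0.0449), with DESeq2 (0.59, adjusted p = 0.00093) and among genes with a mean of at least 5 FPKM (0.67, adjusted p = 0.019). In rhizome it had 534, 555 and 532 FPKM, below every stem library, which edgeR did not call (log2 change -0.42, SE 0.21, adjusted p = 0.149) and DESeq2 did (-0.44, adjusted p = 0.0215).

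**Figure D4:**
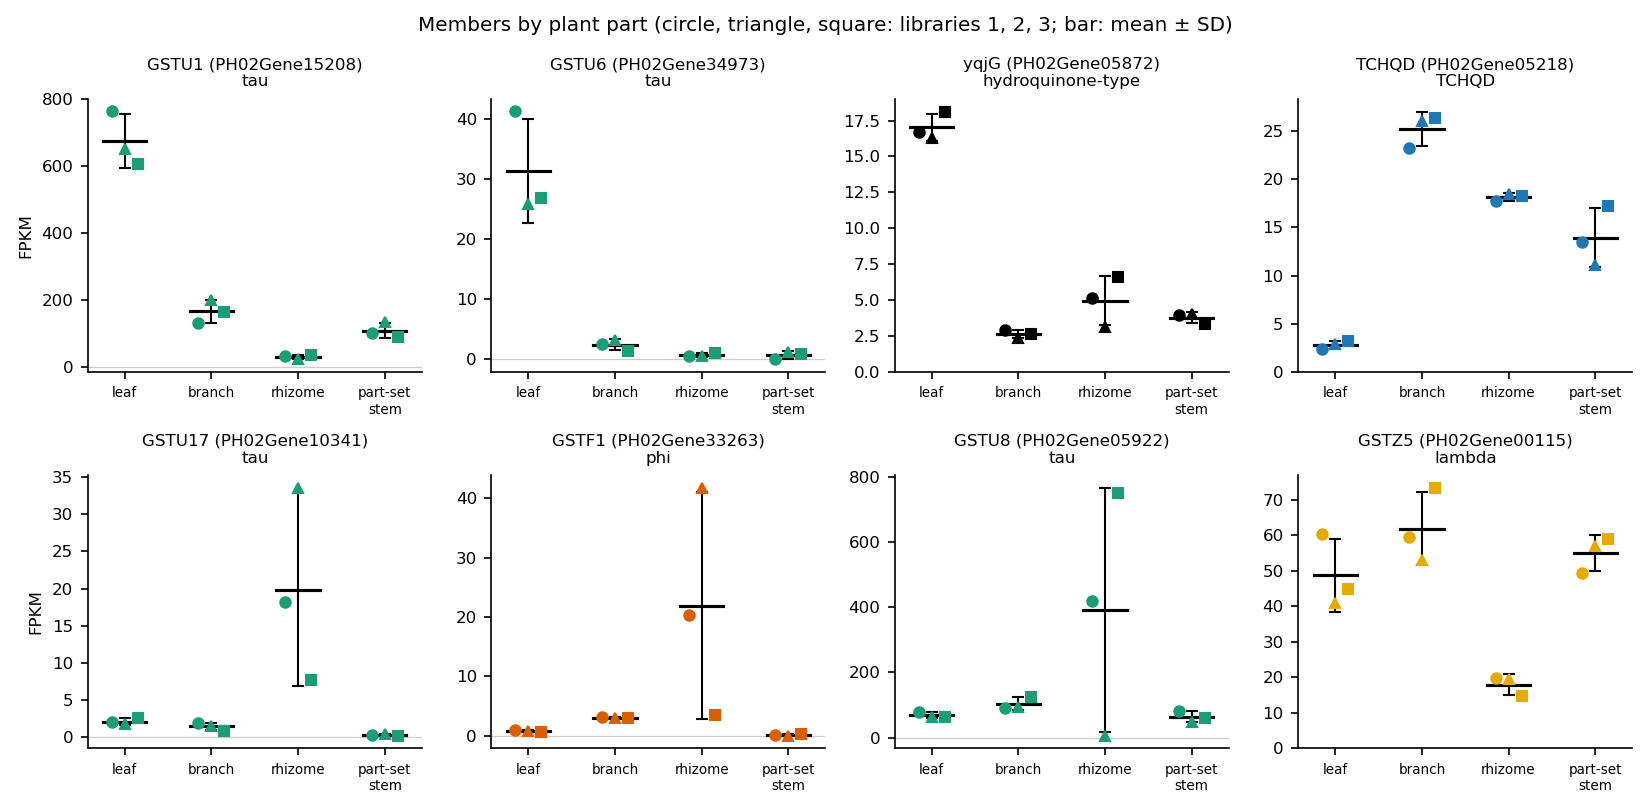
Each panel plots the FPKM of 1 gene in the leaf, branch, rhizome and part-set stem libraries (circle, triangle and square for libraries 1, 2 and 3; bar, mean ± SD, n = 3). GSTU1, GSTU6 (PH02Gene34973) and yqjG are highest in leaf, TCHQD is lowest there, GSTU17 (PH02Gene10341) and GSTF1 (PH02Gene33263) are highest in rhizome, GSTU8 spreads from 5.28 to 752 FPKM among the rhizome libraries, and GSTZ5 is lowest in rhizome.

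Between branch and part-set stem, a single gene of 69 was higher in branch and none lower, while 0.489% and 0.3% of all genes were higher and lower. The gene was GSTU17 (PH02Gene10340), with 10.8, 12.2 and 17.3 FPKM in branch and 2.34, 1.58 and 4.34 FPKM in the stem (log2 change 2.12, SE 0.36, adjusted p = 0.0386). Its call was lost without branch library 2 or 3 or stem library 1 or 2 (adjusted p = 0.0978 to 0.113) and with these groups fitted alone (0.0534). At an unadjusted p under 0.05, 20 genes differed. DESeq2 called 10 genes, all higher in branch, among them GST1 (PH02Gene00763), which had 1501, 1180 and 1533 FPKM in branch and 736, 718 and 635 FPKM in the stem (DESeq2 log2 change 0.89, adjusted p = 9.88e-06). Limma on log2(FPKM + 1) called 8 genes, all higher. The shares of all genes given above are edgeR's, so the DESeq2 and limma counts cannot be set against genes at large. The median log2 change of the 69 genes was 0.54, against -0.02 over all genes.

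In rhizome, 8 of 69 genes were higher (11.6%) and 10 lower (14.5%) than in the part-set stem, close to the 14.5% and 15% of all genes that were higher and lower. The median log2 change was 0.11, against 0.00 over all genes. Without rhizome library 2, 14 genes were higher and 10 lower, including 16 of the 18 called with it, and 7 tau genes were then higher in place of 3. In that fit 24 of the 69 genes were called in either direction, beside 8017 of all 29630 genes tested. The calls lost were those of GSTZ1 (PH02Gene51347, log2 change 1.26, adjusted p = 0.0971) and GSTF1 (PH02Gene50736, -0.95, adjusted p = 0.109). DESeq2 called 14 higher and 15 lower.

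Rhizome rises were led by tau and phi genes that were nearly silent in the stem. GSTF1 (PH02Gene33265) was even among libraries, at 66.3, 59.1 and 62.9 FPKM in rhizome and 0.398, 0.874 and 1.18 FPKM in the part-set stem (log2 change 6.19, SE 0.51, adjusted p = 2.45e-05). GSTF1 (PH02Gene33263) had 20.4, 41.8 and 3.55 FPKM in rhizome, and 0.112, 0 and 0.332 FPKM in the stem (log2 change 7.05, SE 1.02, adjusted p = 0.000816). GSTU17 (PH02Gene10341) had 18.2, 33.6 and 7.69 FPKM in rhizome and 0.200, 0.329 and 0.099 FPKM in the stem (log2 change 6.5, SE 0.70, adjusted p = 0.000142). For both of these genes rhizome library 2 was the highest and library 3 the lowest, and without library 2 the log2 change was 6.06 for GSTF1 PH02Gene33263 and 5.79 for GSTU17. GSTU1 (PH02Gene32238) had no count in the stem or leaf and 9.95, 2.15 and 26.1 FPKM in rhizome, at least 72.4-fold higher than in the stem (adjusted p = 0.00586). It was the single gene that passed the filter through rhizome alone, which fixed the direction of its call. GSTT1 (PH02Gene41351), of the theta class, had 49.4, 63.0 and 45.6 FPKM in rhizome and 17.6, 18.3 and 24.2 FPKM in the stem (log2 change 1.36, SE 0.22, adjusted p = 0.00157).

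Rhizome library 2 lay far from the other rhizome libraries for several abundant genes. GSTU8 (PH02Gene05922) had 420, 5.28 and 752 FPKM in rhizome and 82.8, 48.2 and 61.5 FPKM in the part-set stem, so that libraries 1 and 3 lay above and library 2 below every stem library. With all libraries its log2 change was 2.48 with edgeR (adjusted p = 0.0809) and 2.46 with DESeq2 (adjusted p = 0.0236), and without library 2 edgeR gave 3.06 (adjusted p = 0.000135). GST3 (PH02Gene12093) had 199, 116 and 335 FPKM in rhizome and 106, 114 and 119 FPKM in the stem, with a log2 change of 0.86 with edgeR (adjusted p = 0.053). It was called without library 2 (1.13, adjusted p = 0.00969), with DESeq2 (0.84, adjusted p = 0.0348) and among genes with a mean of at least 5 FPKM (0.89, adjusted p = 0.0432). PRP1 (PH02Gene15897) had 86.3, 2.81 and 157 FPKM in rhizome and 12.7, 4.23 and 3.70 FPKM in the stem (log2 change 3.43, SE 1.01, adjusted p = 0.0263), and its log2 change was 4 without library 2 (adjusted p = 0.000887). GSTF1 (PH02Gene47349), the most abundant phi gene of the part set, had 104, 7.40 and 176 FPKM in rhizome and 164, 138 and 100 FPKM in the stem and edgeR did not call it with or without library 2. Heat shock genes were lowest in the same library, at 9.974 FPKM, and laccase genes highest, at 352.7 FPKM, against 96.39 and 199.1 FPKM in the other rhizome libraries, and their part was not tested.

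Genes lower in rhizome included both lambda genes and a pair of DHAR genes. GSTZ5 (PH02Gene00115) had 19.7, 19.6 and 14.6 FPKM in rhizome and 49.4, 57.0 and 59.0 FPKM in the part-set stem (log2 change -1.66, SE 0.24, adjusted p = 0.000782). GSTZ5 (PH02Gene35394) had 4.02, 2.43 and 1.16 FPKM in rhizome and 10.9, 11.3 and 12.1 FPKM in the stem (log2 change -2.23, SE 0.46, adjusted p = 0.00514). GSTF1 (PH02Gene38553) had 0.101, 0.787 and 0 FPKM in rhizome and 8.83, 10.5 and 9.82 FPKM in the stem (log2 change -5.03, SE 0.76, adjusted p = 0.00105; -7.32 without rhizome library 2). GSTF1 (PH02Gene38549) had 7.57, 2.04 and 12.8 FPKM in rhizome and 51.3, 41.8 and 45.1 FPKM in the stem (log2 change -2.71, SE 0.43, adjusted p = 0.00143). Mgst3 (PH02Gene13913) had 37.4, 37.4 and 36.4 FPKM in rhizome and 123, 78.1 and 56.5 FPKM in the stem (log2 change -1.28, SE 0.27, adjusted p = 0.0056). The call of Mgst3 was lost with these groups fitted alone (adjusted p = 0.0514). Genes with the symbol GSTF1 thus stood on both sides, PH02Gene33263 and PH02Gene33265 higher and PH02Gene38549 and PH02Gene38553 lower in rhizome.

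**Figure D5:**
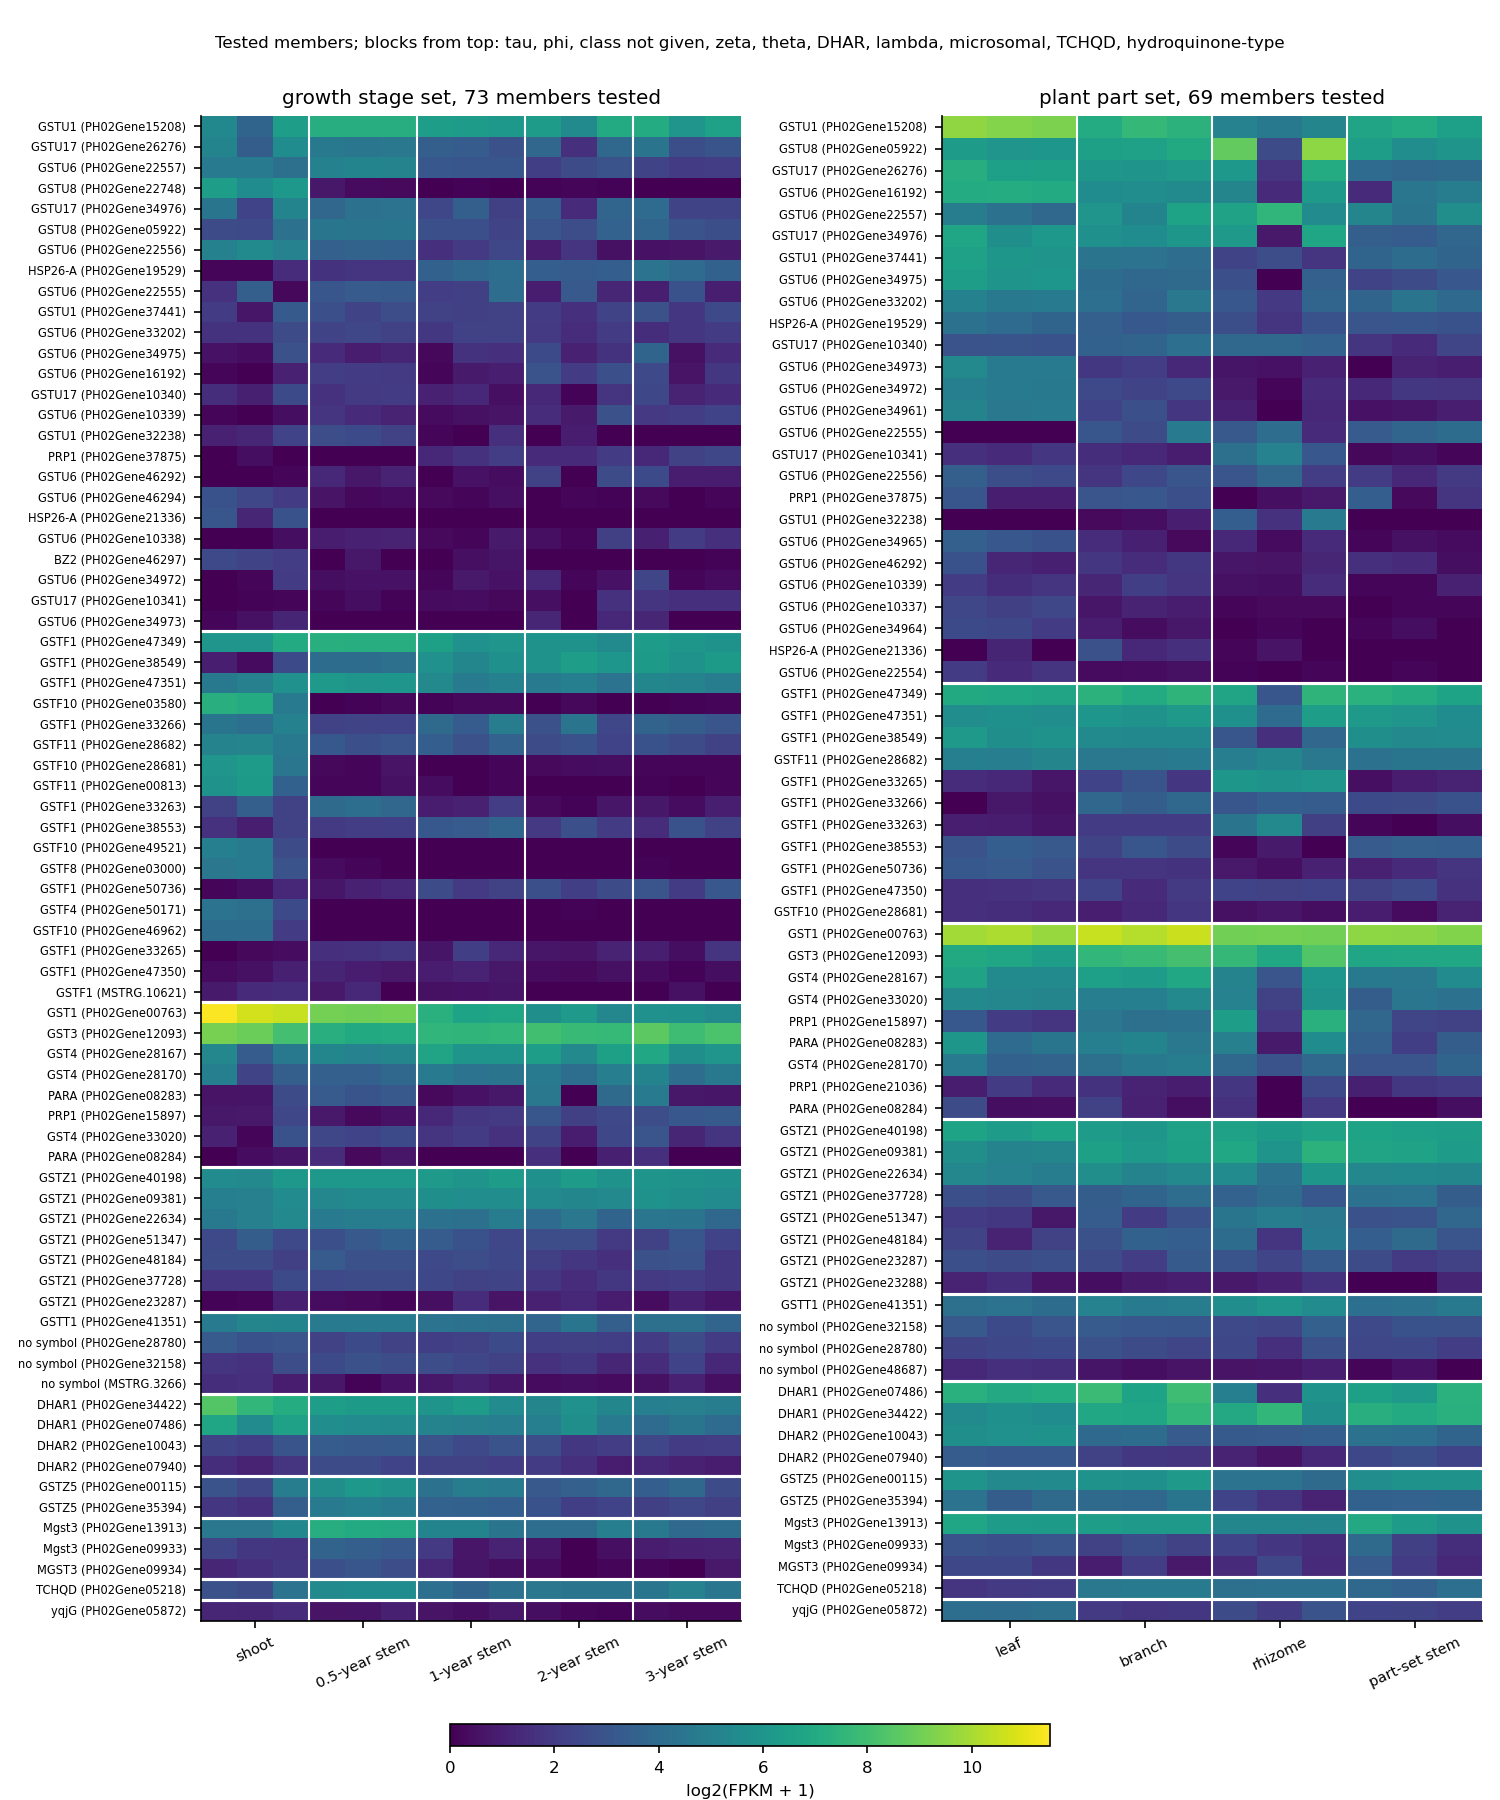
Rows are the tested glutathione S-transferase genes of the growth stage set (left, 73) and the plant part set (right, 69), in blocks by class and ordered by mean level within a class; columns are libraries 1 to 3 of each group and colour is log2(FPKM + 1). The phi block of the growth stage set shows a run of genes bright in shoot and dark in all stems, and the tau block of the plant part set is brightest in leaf, with rhizome library 2 darker than its neighbours for several rows.

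The other genes of glutathione metabolism were listed by their descriptions, and 57 of them were tested at the growth stages, 62 in the plant parts. In the 0.5-year stem against shoot, 18 were higher and 5 lower (median log2 change 0.36), beside 26.5% and 27.3% of all genes. In the 3-year stem against the 0.5-year stem, 19 were higher and 18 lower, beside 21.5% and 24.3% of all genes. No difference between steps was tested. Genes described as ABC transporters of the C family were higher in 12 of 21 cases and lower in 3. Which of them move glutathione conjugates was not tested. Lactoylglutathione lyases, which detoxify methylglyoxal, were lower in 5 of 8 cases and higher in none. ABCC10 (PH02Gene34024) averaged 132 ± 36.2 FPKM in the 3-year stem and 27.3 ± 0.282 FPKM in the 0.5-year stem (SD, n = 3 each; log2 change 2.44, adjusted p = 0.000573). The lyase GLYI-11 (PH02Gene12245) averaged 147 ± 28.8 FPKM in the 3-year stem and 574 ± 5.86 FPKM in the 0.5-year stem (SD, n = 3 each; log2 change -1.81, adjusted p = 0.000174). Of 4 glutathione synthetases, which complete glutathione, 2 were higher and 2 lower. The most abundant of them, GSH2 (PH02Gene31178), averaged 49.8 ± 7.14 FPKM in the 3-year stem and 9.42 ± 0.425 FPKM in the 0.5-year stem (SD, n = 3 each; log2 change 2.56, adjusted p = 6.27e-06).

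In the plant parts, 18 genes of the list were higher and 8 lower in leaf than in the part-set stem (median log2 change 0.43), beside 17.5% and 19.1% of all genes. In rhizome 14 were higher and 8 lower, beside 14.5% and 15%. The C-family transporter ABCC2 (PH02Gene01813) was higher in both leaf and rhizome, at 182 ± 1.71 FPKM in leaf (log2 change 1.27, adjusted p = 0.000504) and 245 ± 12 FPKM in rhizome (log2 change 1.57, adjusted p = 0.00034), against 79.8 ± 2.80 FPKM in the stem (SD, n = 3 each). Both comparisons share the stem libraries. GLYI-11 (PH02Gene12245) averaged 224 ± 11.9 FPKM in leaf and 1217 ± 225 FPKM in the stem (SD, n = 3 each; log2 change -2.36, adjusted p = 0.00014). Glutathione reductase GRC2 (PH02Gene10990), which regenerates glutathione, averaged 121 ± 32.0 FPKM in leaf, 137 ± 19.1 FPKM in branch, 116 ± 51.2 FPKM in rhizome and 119 ± 10.4 FPKM in the stem (SD, n = 3 each) and was not called by edgeR in any part.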

How the data were processed

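The deposited file held a growth stage table (15 libraries) and a plant part table (12 libraries) with headers of their own and every value column belonged to a sample. Per the file headers, the authors deposited an expected count and an FPKM value for each gene and library. Among the tools in the submitters' processing notes are RSEM, HISAT2 and StringTie 1.3.1, with no roles stated, and the build of the genome was not given in the sources used here. After rounding, the expected counts were compared with edgeR 4.0.16 (R 4.3.3; quasi-likelihood, two-sided, TMM scaling) on genes with at least 1 FPKM in 3 libraries of a set, all groups of a set in 1 fit, with Benjamini-Hochberg adjustment over all genes tested in a comparison and calls at 0.05. Sets were never tested against each other. A group without counts was given 3 counts over the group as its bound. Reads were spread over several genes for 53.4% and 52.2% of the tested genes of the family, judged by counts that were not whole, and for 69.2% and 62.9% of all tested genes, so close relatives may share reads.

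The members and lists were chosen with earlier results of these data known. Genes were named by rule: the 8 with the highest mean FPKM in a set, the most abundant of each class other than tau and phi, the most abundant of each glutathione step, and in each comparison the 3 largest rises and 3 largest falls among called genes with groups that did not overlap and a higher mean of at least 5 FPKM; the others were chosen after their values were seen. Classes were read from symbols and descriptions. Alternatives used RLE size factors, DESeq2 1.42.0, limma 3.58.1 on log2(FPKM + 1) and log2(FPKM + 0.1), other filters, single pairs of groups, a replicate block and each library left out. Between libraries with the same replicate number, correlations of deviations from group means ran from -0.15 to 0.16. These cannot show whether such libraries came from the same plants, which the labels do not state. Counts were also simulated for 29538 genes of the growth stage set. Known changes were put into a small subset of the more abundant genes, and each gene had the same spread in all groups. The test of the 0.5-year stem against shoot then recovered 18% of 2-fold and 89% of 4-fold changes, with 5.31% of calls false. For leaf against part-set stem (29630 genes) these were 3%, 48% and 7.27%. The real groups differed in spread, so these rates need not hold for them, nor for genes with few counts.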

Additional observations from a re-analysis of the deposited data

How the results depend on the processing

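Of 2892 recomputed values for named genes in 205 gene comparisons, 2752 kept their side of the threshold, and 88 lost and 52 gained a call. Among called values 0 changed sign, and the sign of values not called was not compared. Restricting the test to genes with a mean of at least 5 FPKM left fewer genes, with 25 called in the 0.5-year stem against shoot, 14 in 1 against 0.5 years, 20 in 3 against 0.5 years and 27 for any difference among stages. DESeq2 called 4 genes in 2 against 1 year, 10 in branch and 29 in rhizome against part-set stem; limma called 2 in 2 against 1 year and 8 in branch on log2(FPKM + 1), and 6 in branch on log2(FPKM + 0.1). Without an expression filter 2 were called in branch. With only the groups compared, 36 were called in 1 against 0.5 years and 3 in branch. With the 0.5-year libraries summed to 1 sample, chosen after seeing the data, 28, 7 and 17 were called in the 0.5-year stem against shoot, 1 against 0.5 years and 3 against 0.5 years. The replicate block used the numbers shared by the groups, which the labels do not tie to plants. It called 44, 26, 0, 0 and 32 genes in the stage comparisons in the order described and 54 for any stage difference. In leaf, branch and rhizome it called 28, 0 and 17, and 42 for any part difference, so the 1 call in branch was lost. Leaving out 1 library at a time gave 40 to 50 calls in the 0.5-year stem against shoot, 15 to 18 in 1 against 0.5 years, 0 to 5 in 2 against 1 year, 0 in 3 against 2 years, 24 to 28 in 3 against 0.5 years, 50 to 60 for any stage difference, 23 to 27 in leaf, 0 to 1 in branch, 14 to 24 in rhizome and 34 to 51 for any part difference. The causes of these differences between settings were not tested. These counts are of the family alone and stand without the share of all genes called under the same setting. On log2(FPKM + 1) and log2(FPKM + 0.1) the median of all genes lay at -0.28 and -0.34 in the 0.5-year stem against shoot, -0.16 and -0.23 in 2 against 1 year, -0.13 and -0.21 in 3 against 0.5 years, and 0.11 and 0.14 in branch. Genes with few counts near the floor have uncertain fold changes at this depth.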
